A study of Saccharomyces cerevisiae with 18 samples.

Results

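55 genes for factors that build ribosomes were followed through 2 count tables of budding yeast RNA, across 6 groups of 3 libraries each. They were taken from a fixed list of nucleolar genes (the NOP, UTP and RRP genes, the small subunit processome, the small nucleolar ribonucleoprotein cores and the pre-60S factors). All 55 identifiers were found among the 12289 features of the tables, of which 6008 are coding features, and all passed the low-count filter of every fit. The study deals with yeast that lacks nonsense-mediated decay (NMD) factors; NMD destroys mRNAs whose translation ends too early.

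Saccharomyces cerevisiae was harvested while growing exponentially in YPD, a rich medium, at 30 °C (optical density 0.6). Total RNA was freed of ribosomal RNA and made into stranded libraries. The upf1 series held a BY4741 wild type of mating type a and a upf1 deletion in the same background (UPF1, the NMD helicase gene, is NAM7 in the annotation). The second series, which the labels give another experimenter, held its own BY4741 wild type, an nmd4 deletion and an ebs1 deletion, all of mating type a, and libraries labelled nmd4 ebs1 double deletion. Those last libraries come from BY4742, of mating type alpha, so strain and genotype cannot be told apart there. The labels do not say whether the 3 libraries of a group came from separate colonies, so p-values measure the spread between these libraries.

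Ribosome biogenesis begins in the nucleolus, where RNA polymerase I makes a long precursor of the ribosomal RNAs. Box C/D and box H/ACA small nucleolar ribonucleoproteins (snoRNPs) methylate and pseudouridylate it, the small subunit processome folds and cuts its 5' part, and pre-60S factors assemble the large subunit. In this yeast the genes for these factors are known to be expressed together and to rise and fall with growth rate, and many carry 2 promoter elements, the PAC element and the ribosomal RNA processing element (RRPE).

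Libraries held 14243384 to 31452109 counts. As a check of the labels, NAM7 stood at 251 ± 5.18 CPM (counts per 1e+06 counts; SD, n = 3) in its wild type against 8.78 ± 0.370 CPM in the upf1 deletion. NMD4 was 2.87 ± 0.853 CPM in the nmd4 deletion against 27.2 ± 4.36 CPM in wild type, but 73.6 ± 8.62 CPM where the label gives a double deletion, and there EBS1 was low (4.83 ± 1.05 CPM against 142 ± 13.1 CPM). EBS1 was 3.67 ± 0.685 CPM in the ebs1 deletion. The libraries labelled double deletion therefore go against their label for NMD4, and each direction drawn from them belongs to libraries with NMD4 present. Their mating type fitted BY4742, with the a-specific receptor gene STE2 at 6.17 ± 0.420 CPM and the alpha-specific STE3 at 415 ± 39.5 CPM.

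The promoter elements are shown first because most of these genes carry them. In the 250 bases before the start codon, on either strand, the PAC core GATGAG occurred in 51 of the 55 members (92.7%) and in 17.0% of 6001 nuclear protein-coding genes. The RRPE core AAAATTTT occurred in 43 members (78.2%) and in 8.65% of all these genes. Both occurred in 40 members (72.7%) against 4.08%, and UTP22 had neither. The annotated feature of UTP22 starts 279 bases before its start codon, so its whole window lay within the feature and none before it was searched. The GATGAG matches lay at a median of 119 bases and the AAAATTTT matches at 137 bases before the start codon. These are matches of letters and not shown to be bound sites, and neither motif contains the other.

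The stretches below were read from the R64 genome, 5' to 3' on the strand of the gene, and end before the transcribed feature of the authors' annotation. Capitals mark GATGAG or its reverse complement CTCATC, and AAAATTTT, which is its own reverse complement. The first set belongs to 5 of the 6 members that fell furthest in the upf1 deletion and to NOP56, the most abundant member. UTP9, the other of those 6, is not shown because its GATGAG lies within its annotated feature.
IMP4, chrXIV:485448-485498, plus strand: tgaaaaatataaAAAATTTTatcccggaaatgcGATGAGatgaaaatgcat
NOP15, chrXIV:418576-418652, minus strand: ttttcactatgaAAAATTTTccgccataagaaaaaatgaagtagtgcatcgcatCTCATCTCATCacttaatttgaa
RLP7, chrXIV:627220-627293, minus strand: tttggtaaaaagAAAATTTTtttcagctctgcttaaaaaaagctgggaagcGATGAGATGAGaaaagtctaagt
RRP1, chrIV:618408-618437, minus strand: aaaaaaaaatgcGATGAGctgaaaaaaatt
GAR1, chrVIII:283406-283447, minus strand: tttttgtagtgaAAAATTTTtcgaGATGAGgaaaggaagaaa
NOP56, chrXII:545913-546006, plus strand: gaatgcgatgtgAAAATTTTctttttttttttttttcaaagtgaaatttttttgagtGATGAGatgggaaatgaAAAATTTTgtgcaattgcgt

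The second set belongs to the members that were not called lower in the upf1 deletion, which are described further on.
NOP19, chrVII:995502-995531, plus strand: gcaatttctagcGATGAGattggaaaaact
MPP10, chrX:438761-438807, plus strand: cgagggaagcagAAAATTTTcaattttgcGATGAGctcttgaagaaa
IMP3, chrVIII:393440-393469, plus strand: cactgatataagCTCATCgcaacaaaaatt
SPB4, chrVI:146984-147049, minus strand: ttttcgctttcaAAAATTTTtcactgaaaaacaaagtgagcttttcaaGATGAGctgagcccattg
NOP16, chrV:156686-156715, plus strand: agaaaaataggcGATGAGataaatttataa
All 5 of these genes carried GATGAG, as did 46 of the 50 genes called lower. AAAATTTT was found in 2 of the 5 and in 41 of the 50.

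Levels between genes were compared per length, in TPM (transcripts per 1e+06) over coding features. In the wild type of the upf1 series the members spanned a 37.7-fold range of TPM around a median of 92.2, against 35.7 for all coding features. NOP56, which encodes a core box C/D protein, stood highest at 582 ± 3.24 TPM (SD, n = 3), followed by NHP2 (500.1 ± 27.0 TPM) and NOP58 (414 ± 23.4 TPM). The pre-60S factor gene NOP16 stood lowest at 15.4 ± 2.15 TPM, below the processome gene DIP2 (31.0 ± 2.49 TPM) and UTP5 (35.0 ± 1.10 TPM). By role, the median was 302 TPM for box C/D and 388 TPM for box H/ACA proteins, 147 TPM for pre-60S factors, 68.2 TPM for UTP-A and 47.1 TPM for UTP-B. Of the 54 neighbouring pairs in this order, 41 had overlapping ranges over the 3 libraries.

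Each table was scaled on its own, so levels across the 2 series are set side by side and not tested. In the wild type of the second series the median member stood at 158 TPM, and all 55 members had a higher mean TPM than in the wild type of the upf1 series, by a median of 1.69 times. The ratio was smallest for RRP1 (1.08) and NOP19 (1.11) and highest for NOP16 (9.28), which went from the lowest rank to rank 32. NOP19, which encodes a small subunit processome protein, was the lowest member of the second wild type at 51.6 ± 7.01 TPM. By role, the medians there were 599 TPM for box C/D and 502 TPM for box H/ACA proteins, the reverse of their order in the first wild type. They were 247 TPM for pre-60S factors, 135 TPM for UTP-A and 127 TPM for UTP-B. The 14 environmental stress genes, which are known to move against these factors, summed to 7147 to 7357 CPM in the first wild type and to 1027 to 1483 CPM in the second, and their part in the difference was not tested.

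In the upf1 deletion almost the whole set fell together. edgeR called 50 of 55 members lower and 1 higher (adjusted p under 0.05), and 4 were not called, while 31.8% of the 9700 features tested were lower and 37% higher. Among the 5694 coding features tested, 2559 were lower and 1457 higher. The median log2 change of the members was -0.52, which is 0.698 of wild type, against 0.02 over all features and -0.14 over the 5694 coding features. The upf1 libraries all lay below the wild-type libraries for 51 members, against 33.3% of all features, and all above for 1, against 38.6%. In bulk RNA, fewer cells that express a gene and less of its RNA per cell cannot be told apart.

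**Figure D1:**
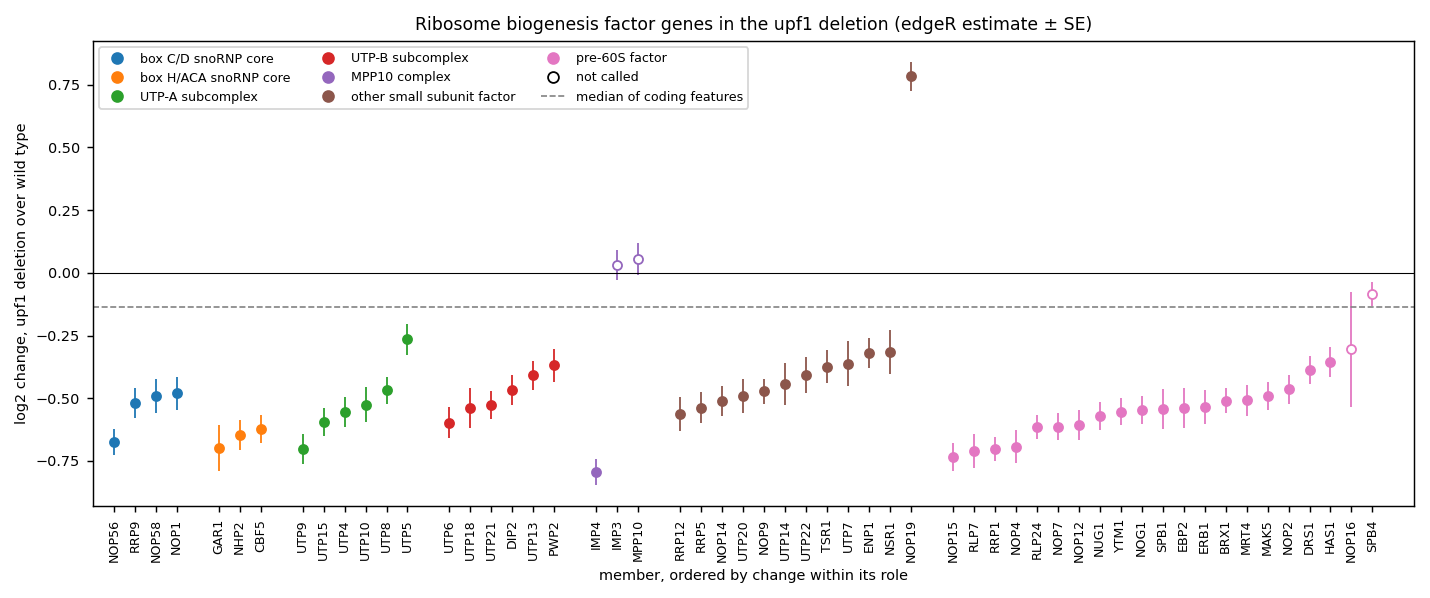
The log2 change of each of the 55 members in the upf1 deletion over its wild type (points, edgeR estimate; bars, standard error), ordered within each role, with open points for the 4 members not called and a dashed line at the coding median of -0.14. Most members lie between -0.79 and -0.27, while NOP19 stands at 0.78 and MPP10, IMP3 and SPB4 near 0.

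The size of the fall depended on the scaling. Summed over the members, the wild-type libraries held 10975, 11750 and 11549 CPM in replicates 1, 2 and 3, and the upf1 libraries 7717, 8300 and 8012 CPM. The groups did not overlap, and each upf1 library held 69.4% to 70.6% of its same-numbered wild type. As a share of all coding counts the members made up 1.24% ± 0.0357 in wild type and 1.05% ± 0.0256 in the upf1 deletion (SD, n = 3), or 84.2% to 85.1% of the same-numbered wild type. Scaling on coding features moved the median of all features up to 0.15 and that of the members to -0.39. Under it 48 members were lower and 3 higher, against 21% and 42.6% of all features. Of the 5694 coding features 1667 were lower and 1868 higher under it.

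The members grouped here as box C/D and box H/ACA proteins were lower in all 7 genes. NOP56 (YLR197W, chrXII:546047-547783 in R64, plus strand) stood at 783, 761 and 765 CPM in wild type and at 477, 482 and 488 CPM in the upf1 deletion. The upf1 libraries lay far below, and the log2 change was -0.67 ± 0.05 (SE; adjusted p = 6.50e-07, edgeR). The shallowest change among the 4 box C/D genes was that of NOP1, the methyltransferase fibrillarin, with 186, 197 and 212 CPM against 143, 149 and 134 CPM (log2 -0.48 ± 0.07, adjusted p = 6.82e-05, edgeR). Of the 3 box H/ACA genes, GAR1 went furthest, from 44.8, 43.0 and 43.2 CPM to 23.1, 31.1 and 26.4 CPM (log2 -0.70 ± 0.09, adjusted p = 5.18e-05, edgeR). CBF5, the pseudouridine synthase gene, fell from 507, 504 and 487 CPM to 311, 333 and 327 CPM, with no overlap (log2 -0.62 ± 0.06).

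The UTP-A subcomplex, which binds the 5' end of the precursor first, was lower in 6 of 6 genes with a median log2 of -0.54. UTP9 fell from 87.8, 98.9 and 99.7 CPM to 57.0, 60.9 and 58.0 CPM (log2 -0.70 ± 0.06, adjusted p = 1.79e-06, edgeR). UTP5 had the smallest fall of any gene called, from 58.3, 59.3 and 56.4 CPM to 47.6, 52.0 and 45.0 CPM (log2 -0.27 ± 0.06, adjusted p = 0.00268, edgeR). Its groups did not overlap, but the call was lost when scaled on coding features (log2 -0.13, adjusted p = 0.0588, edgeR), as was that of NSR1, the gene of a nucleolin-like protein (adjusted p = 0.0639). The UTP-B subcomplex, another scaffold of the processome, was lower in 6 of 6 with a median of -0.50. UTP6 fell from 50.0, 51.6 and 52.2 CPM to 31.2, 34.7 and 35.7 CPM (log2 -0.60 ± 0.06), and PWP2 from 213, 237 and 224 CPM to 165, 186 and 170.3 CPM (log2 -0.37 ± 0.07). Neither gene had overlapping groups, although the PWP2 feature shares 1 base with that of a neighbouring coding gene, as does that of DIP2.

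The MPP10 complex, a trio of proteins that joins the U3 snoRNP in the processome, was split. IMP4 (YNL075W, chrXIV:485522-486594, plus strand) had the deepest fall of all 55 members. It stood at 71.5, 72.7 and 76.7 CPM in wild type and at 41.5, 42.1 and 43.7 CPM in the upf1 deletion (log2 -0.79 ± 0.05, adjusted p = 1.94e-07, edgeR). MPP10 (YJR002W, chrX:438847-441015, plus strand) stood at 79.6, 89.0 and 88.0 CPM against 87.4, 95.4 and 83.8 CPM, with overlapping groups (log2 0.06 ± 0.06, adjusted p = 0.450, edgeR). IMP3 (YHR148W, chrVIII:393503-394423, plus strand) stood at 45.1, 45.7 and 42.1 CPM against 42.8, 47.9 and 44.9 CPM, again overlapping (log2 0.03 ± 0.06, adjusted p = 0.669, edgeR). When scaled on coding features both were called higher, MPP10 at 0.19 (adjusted p = 0.0127, edgeR) and IMP3 at 0.16 (adjusted p = 0.0282, edgeR). Per length, IMP4 stood at 90.1 ± 3.71 TPM in wild type, above IMP3 (63.1 ± 2.95 TPM) and MPP10 (51.8 ± 3.69 TPM). In the upf1 deletion IMP4 (64.2 ± 1.97 TPM) and MPP10 (66.5 ± 4.37 TPM) differed by less than their spread.

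Of the 12 other small subunit factor genes, 11 were lower and 1 was higher. The deepest fall was that of RRP12, whose product takes part in the export of pre-ribosomal subunits: 306, 351 and 321 CPM against 208, 232 and 222 CPM (log2 -0.56 ± 0.07, adjusted p = 3.07e-05, edgeR). RRP5, which serves both subunits, and UTP20, a very large processome protein, fell by 0.54 and 0.49 on the log2 scale. NOP19 (YGR251W, chrVII:995605-996757, plus strand) rose. It stood at 43.2, 39.9 and 39.5 CPM in wild type and at 69.4, 68.4 and 73.6 CPM in the upf1 deletion. Every upf1 library was well above every wild-type library, and the change of 1.72-fold (log2 0.78 ± 0.06, adjusted p = 4.33e-07, edgeR) kept its direction and call in every alternative fit tried. Per length NOP19 moved from rank 49 of the members (46.6 ± 1.86 TPM) to rank 21 (99.3 ± 4.18 TPM). A CUT annotated on the opposite strand over NOP19 stood at 0.642 CPM in wild type and 0.577 CPM in the upf1 deletion and was not called (log2 -0.18, adjusted p = 0.621, edgeR). The counting was stranded. On the same strand 1 other feature, not a coding one, overlapped NOP19, so a read in the overlap counted for both. Its part in the rise was not tested. NOP58, UTP5 and NOP14 also had 1 such overlap each.

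Of the 21 pre-60S factor genes, 19 were lower, with a median log2 of -0.54. NOP15, an RNA-binding protein gene, stood at 122, 123 and 113 CPM against 69.8, 75.6 and 69.9 CPM (log2 -0.73 ± 0.06, adjusted p = 6.82e-07, edgeR). RLP7, which encodes a relative of a ribosomal protein, stood at 142, 155 and 157 CPM against 86.1, 100.4 and 90.9 CPM (log2 -0.71 ± 0.07), and RRP1 at 98.2, 99.3 and 103 CPM against 60.9, 61.6 and 62.6 CPM (log2 -0.70 ± 0.05). No groups overlapped for these 3 genes. The genes of the NOP7-ERB1-YTM1 complex moved alike, at -0.61, -0.54 and -0.55 on the log2 scale. Among the DEAD-box helicase genes of the set the changes were uneven: MAK5 stood at -0.49, DRS1 at -0.39 and HAS1 at -0.36, all called lower, while SPB4 was not called. SPB4 stood at 85.3, 88.7 and 84.9 CPM against 81.0, 82.8 and 80.5 CPM (log2 -0.08 ± 0.05, adjusted p = 0.133, edgeR). Its groups did not overlap, and its sign turned when scaled on coding features (log2 0.049, adjusted p = 0.341, edgeR), whereas RLE scaling called it lower (log2 -0.13, adjusted p = 0.0329, edgeR). NOP16, the member with the fewest reads (137 in its lowest library), stood at 8.30, 10.7 and 10.1 CPM against 5.78, 11.5 and 5.99 CPM (log2 -0.31 ± 0.23, adjusted p = 0.257, edgeR). Upf1 replicate 2 lay above the wild-type libraries and replicates 1 and 3 below them, and without replicate 2 the log2 change was -0.71 (adjusted p = 0.000986, edgeR).

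**Figure D2:**
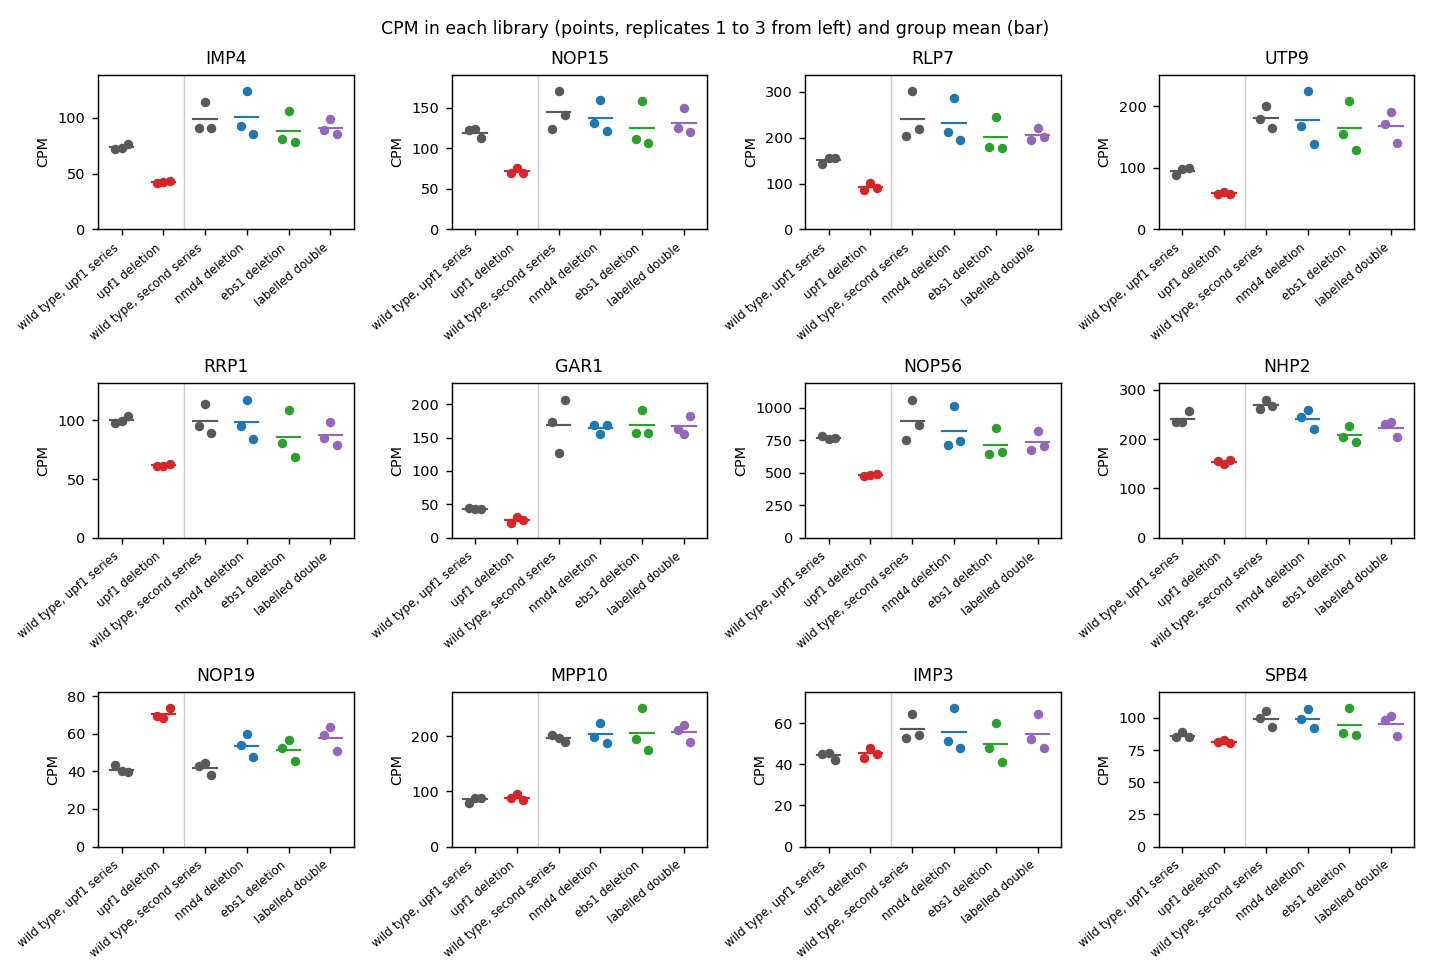
CPM of 12 members in each of the 18 libraries (points; replicates 1 to 3 from left to right in each group) with the group mean as a bar, each series scaled on its own and divided by a grey line. The upf1 points of IMP4, NOP15, RLP7, UTP9, RRP1, GAR1, NOP56 and NHP2 lie below their wild type, those of NOP19 above, and those of MPP10 and IMP3 overlap it.

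Of the 5 members that were not called lower, 3 had long annotated 3' ends. Features reached 35 to 528 bases beyond the coding end in RefSeq for the members, with a median of 114, and a median of 107 over 5675 coding features tested. NOP19 had the longest such 3' extension of the members (528 bases), MPP10 the next (369 bases) and IMP3 the third (338 bases). NOP14, a processome gene with 302 bases, was called lower at -0.51 on the log2 scale. The median log2 change was 0.04 for these 4 members and -0.53 for the other 51. Over all coding features it was 0.11 for the 414 with 300 bases or more and -0.15 for the 5261 with fewer. Across the 55 members the extension and the log2 change had a Pearson r of 0.68 and a Spearman rho of 0.23, and across the coding features 0.06 and -0.01. These are descriptions across genes that share libraries, the limit of 300 bases was chosen after the values were seen, and the extension's part in the change was not tested. SPB4 (136 bases) and NOP16 (96 bases) had no long extension.

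**Figure D3:**
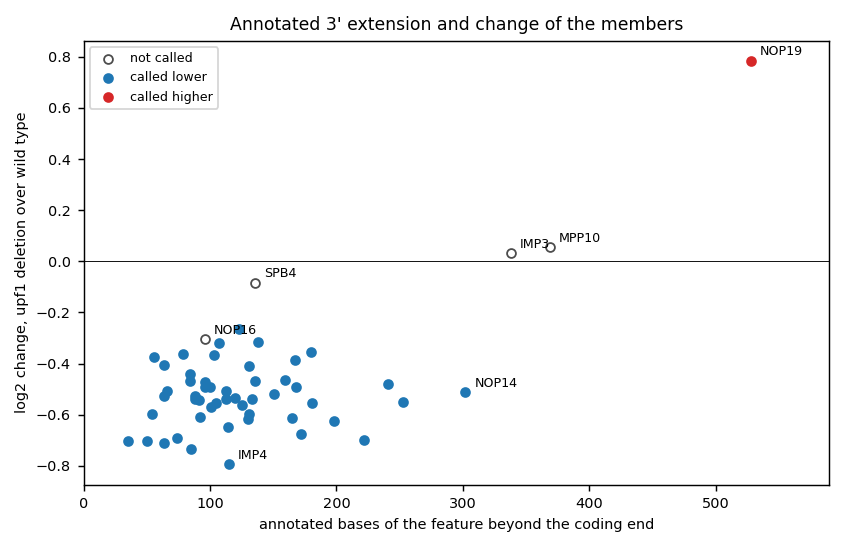
Annotated bases of each member's feature beyond its coding end (x axis) against its log2 change in the upf1 deletion (y axis), 1 point a member. NOP19, at 528 bases and 0.78, and MPP10 and IMP3, at 369 and 338 bases near 0, lie apart from the members with short extensions, which lie below 0, as does NOP14 at 302 bases.

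Other genes of the pathway moved the same way in the upf1 deletion. The shares over all features there were 31.8% lower and 37% higher. Of the 5694 coding features, 2559 were lower and 1457 higher. Of 49 further small subunit factor genes 41 were lower and 3 higher (median log2 -0.45), and of 52 further large subunit factor genes 45 were lower and 1 higher (median -0.49). PNO1, a late small subunit factor gene, was at -0.63 and RRP7 at -0.48 on the log2 scale, and the large subunit genes LOC1 and SSF1 at -0.94 and -0.67. The genes called higher were ESF1 (log2 0.93 ± 0.07, from 148 ± 3.54 to 282 ± 23.6 CPM), RIO1 (0.40 ± 0.06), NOC4 (0.38 ± 0.07) and JIP5 (1.01 ± 0.05, from 99.8 ± 0.573 to 201 ± 6.55 CPM). Among 138 genes for cytosolic ribosomal proteins the calls were 130 lower and 2 higher, with a median log2 of -0.46, and the difference from the members' -0.52 was not tested. The pair called higher were RPL22B (0.96) and RPL8A (0.21). Genes of this list with a paralogous copy, among those called lower as well as these 2, have less certain counts. The part of paralogous copies in the calls was not tested. RNA polymerase I had 6 of 7 subunit genes lower (median -0.33; RPA12 at -0.63 and RPA43 at -0.38), with RPA34 at -0.02 not called, and RNA polymerase III had 7 of 10 lower (median -0.30; RPC82 at -0.43 and RPC25 at -0.66).

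Of 7 genes for regulators of this gene set, 5 were lower (median log2 -0.34). IFH1 and FHL1, known for their place at ribosomal protein promoters, fell by 0.57 and 0.54 on the log2 scale, and TOD6, whose product binds the PAC element, fell by 0.58. The other PAC-binding repressor gene, DOT6, was at 0.05 and the RRPE-binding STB3 at -0.18, both not called. Of the 14 environmental stress genes 6 were higher and 2 lower (median log2 0.12), where 37% of all features were higher and 31.8% lower. Among the 5694 coding features 1457 were higher and 2559 lower. The catalase gene CTT1 was called higher at 0.66, and the pair called lower were the chaperone gene HSP26 at -0.70 and the glucokinase gene GLK1 at -0.16. Their summed level was 7147 to 7357 CPM in wild type and 7526 to 7846 CPM in the upf1 deletion, and the part of stress or growth rate in the fall of the members was not tested. The 5 a-specific genes had 4 lower (median -0.69; BAR1 at -0.77 and STE6 at -0.69), and of 4 alpha-specific genes 2 were tested and both higher (SAG1 at 2.02 and STE3 at 0.37). Over 5 members, 6 antisense non-coding features were tested, of which 2 were higher: one over RRP1 (log2 1.52, adjusted p = 5.28e-05, edgeR) and one over EBP2 (log2 0.58, adjusted p = 0.000822, edgeR). Of all 3426 non-coding features tested 1934 were higher.

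In the second series no member was called in any mutant, and the median member stood slightly below wild type in each. All 3 mutants share 1 wild type, so their values are not independent of each other. In the nmd4 deletion the median log2 was -0.06 (all features 0.00, coding features -0.02), with 50 of 55 members below 0 and 1 at an unadjusted p under 0.05. 0.00985% of features were called lower and 0.0394% higher there. In the ebs1 deletion the median was -0.20 (coding features -0.04), with 53 of 55 below 0, 3 members at an unadjusted p under 0.05, and 0.00985% of features called lower and 0.355% higher. In the libraries labelled double deletion it was -0.17 (coding features -0.06), with 53 of 55 below 0, again 3 members at an unadjusted p under 0.05, and 0.384% of features lower and 2.01% higher. These medians moved with single libraries. For nmd4 the median was 0.02 without nmd4 replicate 3, 0.006 without replicate 2 of the wild type, -0.11 without replicate 3 of the wild type and -0.18 without nmd4 replicate 2, so its sign was not stable. For ebs1 it was -0.07 without ebs1 replicate 3, -0.12 without replicate 2 of the wild type and -0.36 without ebs1 replicate 2. For the labelled double deletion it was -0.08 without its replicate 3 and -0.11 without replicate 2 of the wild type. DESeq2 called no member in the nmd4 deletion, 1 lower in the ebs1 deletion (NHP2; 0.778% of features were lower) and 1 higher in the labelled double deletion (NOP19; 2.92% were higher). No gene of the further processing factor, ribosomal protein, polymerase, regulator or stress lists was called by edgeR in these 3 comparisons. The median log2 of the 101 further processing factors was -0.05 in the nmd4 deletion and -0.13 in the ebs1 and labelled double deletions. For the 138 ribosomal protein genes it was -0.17, -0.27 and -0.24 in the nmd4, ebs1 and labelled double deletions, each below the median of the members. These differences between lists were not tested.

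**Figure D4:**
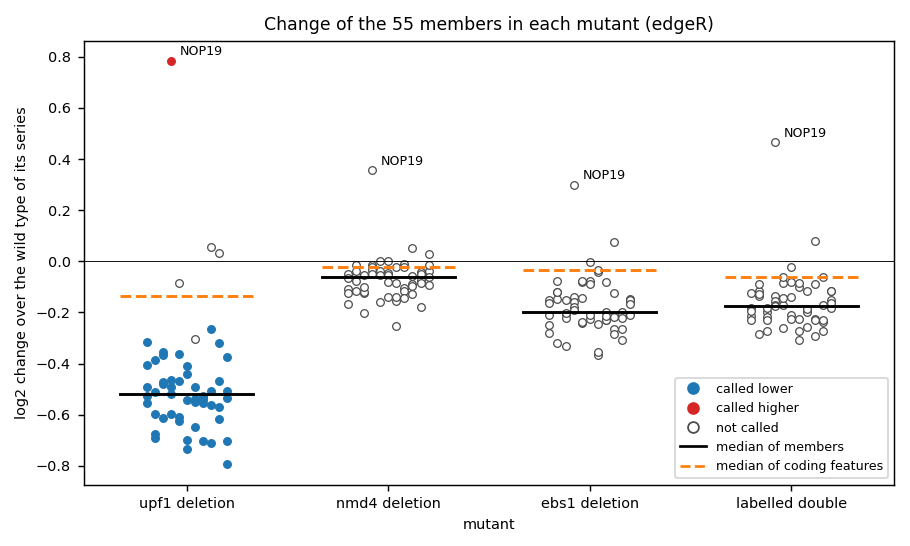
Log2 change of each of the 55 members in the 4 mutants over the wild type of the same series (points; edgeR), with the median of the members (solid bar) and of coding features (dashed bar). The upf1 points centre on -0.52, those of the other mutants on -0.06, -0.20 and -0.17 with no member called, and NOP19 is the highest point in each.

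Levels in this series differed by replicate number in the same way in each group. The summed CPM of the members in replicates 1, 2 and 3 was 17368, 19385 and 17095 in wild type, 16347, 19128 and 14761 without NMD4, 14912, 18648 and 12993 without EBS1 and 15692, 17266 and 13925 in the labelled double deletion. Replicate 2 was highest and replicate 3 lowest in each group, and each mutant library lay below its same-numbered wild type, at 86.3% to 98.7% for nmd4, 76.0% to 96.2% for ebs1 and 81.5% to 90.4% for the labelled double deletion. As a share of coding counts the ranges were 93.6% to 101%, 88.9% to 99.4% and 92.8% to 100.1%. The 14 stress genes summed to 1027, 1483 and 1121 CPM in wild type but to 2043, 2356 and 1873 CPM in replicate 3 of the nmd4, ebs1 and labelled double deletions, against 703 to 1028 CPM in their replicates 1 and 2, and their part was not tested.

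**Figure D5:**
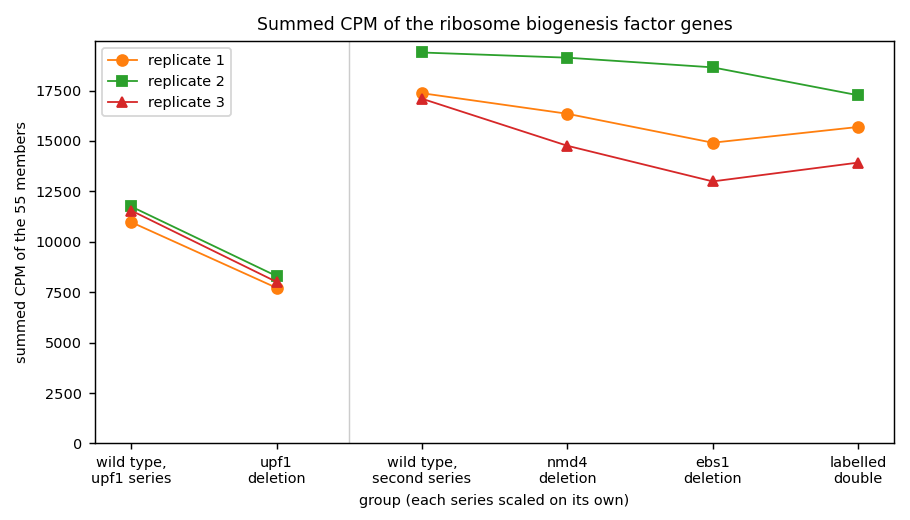
Summed CPM of the 55 members in each library, with lines joining same-numbered replicates within a series and each series scaled on its own. The upf1 libraries lie between 7717 and 8300 against 10975 to 11750 in their wild type, while in the second series replicate 2 lies above replicates 1 and 3 in every group.

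The labels say that same-numbered libraries were handled in parallel, and with the replicate number as a block some members passed. Deviations of wild-type libraries from their group mean correlated with those of same-numbered mutants at 0.55 to 0.58 for replicate 1. For replicates 2 and 3 the correlations were only -0.02 to 0.28, so the block calls rest partly on weak pairs. For nmd4 the block called no member. In the ebs1 deletion 12 members were lower and 1 higher with the block, against 2.4% and 3.22% of all features, and in the labelled double deletion 9 were lower and 1 higher, against 3.63% and 5.17%. NHP2, a core box H/ACA protein gene, was among those lower. It stood at 259.9, 279.6 and 267 CPM in wild type, at 205, 227 and 195 CPM in the ebs1 deletion and at 229.8, 234 and 204 CPM in the labelled double deletion. No group overlapped wild type. Its log2 change in the ebs1 deletion was -0.37 ± 0.09 (adjusted p = 0.125, edgeR, or 0.0122 with the block), and in the labelled double deletion -0.27 ± 0.09 (adjusted p = 0.185, or 0.0168 with the block).

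NOP19 was the 1 member above wild type in every library of each of these mutants. It stood at 42.9, 44.7 and 38.3 CPM in wild type, at 53.8, 59.6 and 47.6 CPM without NMD4, at 52.3, 56.7 and 45.7 CPM without EBS1 and at 59.3, 63.8 and 50.7 CPM in the labelled double deletion. None of these groups overlapped wild type. Mutant libraries lay all above wild type in 4.71%, 9.32% and 11.1% of features in these comparisons, and all below in 3.18%, 5.94% and 7.35%, which was so for 2, 1 and 6 members. The log2 change of NOP19 was 0.36 ± 0.12 in the nmd4 deletion (adjusted p = 0.927, edgeR), 0.30 ± 0.12 in the ebs1 deletion (adjusted p = 0.339, or 0.0208 with the block) and 0.47 ± 0.12 in the labelled double deletion (adjusted p = 0.0795, or 0.000922 with the block). In the labelled double deletion it also passed with DESeq2 (adjusted p = 0.0334) and when scaled on coding features (adjusted p = 0.0335, edgeR; 2.65% of features were higher). UTP20 had the next smallest p in the nmd4 deletion, with 889, 1267 and 989 CPM in wild type against 857, 996 and 788 CPM, overlapping groups and a log2 change of -0.25 ± 0.15 (adjusted p = 0.999, edgeR).

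The libraries labelled double deletion did not differ from the single deletions in any member by edgeR. Against the nmd4 deletion the median log2 was -0.10 and no member had an unadjusted p under 0.05, with 0.266% of features lower and 0.286% higher. NUG1, a GTPase gene, and SPB1, a methyltransferase gene, had the smallest p, at -0.18 ± 0.14 and -0.23 ± 0.18 (adjusted p = 0.997 for both, edgeR). Against the ebs1 deletion the median was 0.01, again with none under 0.05, and 0.266% of features were lower and 0.148% higher. NOP19 (0.17 ± 0.12) and NHP2 (0.09 ± 0.09) had the smallest p there, with an adjusted p of 1.00 for both (edgeR), and DESeq2 called no member in either comparison. Both medians changed sign with single libraries. With 1 library left out the one against nmd4 ran from -0.19 (without nmd4 replicate 3) to 0.02 (without nmd4 replicate 2), and the one against ebs1 from -0.11 (without ebs1 replicate 3) to 0.18 (without ebs1 replicate 2).

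The difference between the upf1 effect and each other effect was tested over all 18 libraries, each effect taken within its own series. The 3 differences share the upf1 series and the second wild type. The median member was lower by 0.43 on the log2 scale in the upf1 effect than in the nmd4 effect, where 10 members were called lower and 0 higher, against 5.42% and 20.8% of 10381 features. Against the ebs1 effect it was lower by 0.33, with 2 members lower and 1 higher (2.97% and 16.9% of features). Against that of the labelled double deletion it was lower by 0.35, with 3 lower and 0 higher (2.54% and 16.3%). Of the 5742 coding features tested, 460, 250 and 202 were lower in the 3 differences, and 825, 621 and 618 higher. Their median differences were -0.10, -0.10 and -0.08. Against ebs1, lower calls were thus no more frequent among the members than among coding features. With the replicate block 44, 37 and 39 members were called lower, against 16.3%, 12.3% and 11.7% of features. NOP19 was called higher in each, against 24.9%, 21.3% and 20.8%. Another 3 settings also gave more lower calls, among members and among all features. RLE scaling called 33, 12 and 13 members lower, against 17.5%, 11.1% and 9.36% of features. DESeq2 called 36, 17 and 18, against 18.8%, 13.2% and 11.6%, and without the low-count filter 29, 7 and 8 were called, against 11.9%, 6.23% and 5.95%. Scaling on coding features called fewer, 6, lower against nmd4, with 3.44% of features lower. Without ebs1 replicate 2 the median difference from the ebs1 effect was -0.16, the least of its values with 1 library left out, which reached -0.45.

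Although lower calls against ebs1 were no more frequent than among coding features, IMP4 and GAR1 were lower in all 3 differences. For IMP4 they were -0.82 ± 0.20 against nmd4 (adjusted p = 0.00531, edgeR), -0.66 ± 0.20 against ebs1 (adjusted p = 0.0265) and -0.70 ± 0.20 against the labelled double deletion (adjusted p = 0.0187). The IMP4 call against ebs1 was lost without replicate 2 of ebs1 or upf1 or replicate 3 of the first wild type. It was also lost without replicate 1 or 3 of the second wild type. The IMP4 call against the labelled double deletion was lost without replicate 2 of that group. IMP4 had stood at 91.0, 114 and 90.5 CPM in the second wild type and at 92.2, 124 and 85.5 CPM in the nmd4 deletion, which overlap. For GAR1 the differences were -0.65 ± 0.20, -0.72 ± 0.20 and -0.70 ± 0.20 (adjusted p = 0.0220, 0.0154 and 0.0180, edgeR). NHP2 was lower against nmd4 (-0.49 ± 0.12, adjusted p = 0.00741, edgeR) and against the labelled double deletion (-0.40 ± 0.12, adjusted p = 0.0331). The latter call was lost when scaled on coding features (adjusted p = 0.0507, edgeR). It was also lost without replicate 2 or 3 of upf1 or of its wild type. Nor did it pass without replicate 1 or 3 of the second wild type or replicate 2 of the labelled double deletion. The other members called lower against nmd4 were CBF5 (-0.46 ± 0.14), UTP15 (-0.58 ± 0.18), RRP1 (-0.69 ± 0.22), NOP4, NOP15, RLP7 and NUG1. The calls of CBF5, UTP15 and RRP1 were each lost without nmd4 replicate 2. Those of UTP15 and RRP1 were also lost without replicate 3 of upf1 or of either wild type. RRP1 also lost its call without replicate 2 of upf1 or of its wild type. NOP19 was higher in the upf1 effect than in the ebs1 effect (0.47 ± 0.16, adjusted p = 0.0455, edgeR), a call that was lost without any 1 of 12 libraries of the 18. That call was also lost with RLE scaling (adjusted p = 0.121, edgeR), with DESeq2 (adjusted p = 0.131) and without the low-count filter (adjusted p = 0.110, edgeR).

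The number of these calls moved with single libraries. Shares of all features called with 1 library left out are not given, so these counts are not read as changes in the members. Against nmd4 the 10 lower calls became 3 without nmd4 replicate 2, 4 without upf1 replicate 3 or replicate 3 of the second wild type, and 5 without replicate 2 or 3 of the first wild type. They became 27 without replicate 1 of the ebs1 or of the labelled double deletion, 22 and 17 without nmd4 replicates 1 and 3, and 16 without ebs1 replicate 2. Against ebs1 the 2 became 1 without replicate 3 of the first wild type, upf1 replicate 2, replicate 1 or 3 of the second wild type or ebs1 replicate 2. They became 4 without replicate 2 of the second wild type, 5 without upf1 replicate 1, 7 without replicate 1 of any second-series mutant and 12 without ebs1 replicate 3. Against the labelled double deletion the 3 became 1 without its replicate 2, 5 without its replicate 3 or replicate 2 of the second wild type, 6 without its replicate 1 and 7 without nmd4 replicate 1 or any ebs1 library.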

How the data were processed

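RNA was measured in 18 libraries of 6 groups. Per the file headers, the authors deposited read counts per feature made with featureCounts (Subread 1.5.0-p3), counting the sense strand, and the submitters' processing notes give STAR 2.4.2a and the R64 genome. The counts are raw and carry no scaling, and feature lengths came with them. Per the file headers, a read counted for every feature it overlapped and the option to count multi-mapping reads was not set.

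The members and all gene lists were chosen with earlier results of these data known. Features kept by filterByExpr were scaled with TMM and tested in R 4.3.3 with edgeR 4.0.16 (quasi-likelihood, 2-sided, Benjamini-Hochberg over all features tested, threshold 0.05). The upf1 series was fitted on 6 libraries, the second series on 12 and the differences of effects on 18. Log2 changes are edgeR estimates, and the standard error is the absolute change over the square root of F. CPM are TMM-scaled within a series. TPM use the deposited lengths over coding features, leaving out 1 feature with a negative length. The fits were tested on simulated counts. That simulation gave all features the same spread and did not link same-numbered libraries, so it was simpler than these data. Alternatives were the replicate block, scaling on coding features, RLE scaling, DESeq2, no low-count filter and leaving out each library.

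Named genes were fixed by rule: for upf1, the deepest and shallowest of each role, every member not called lower and the 6 lowest; elsewhere, the called members (up to 6 by p) or the 2 with the smallest p; for other lists, the 2 with the smallest p and every member called against the majority. Further members were named after their values were seen. A promoter table was not used here, so windows were read from the R64 genome and RefSeq coding starts.

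Same-numbered libraries were handled in parallel, per the labels. Their deviations from group means correlated at 0.04 to 0.29 over 3 pairs in the upf1 series and at -0.02 to 0.72 (median 0.55) over 18 pairs in the second. Among those 18, pairs of wild type with a mutant ran from -0.02 to 0.28 for replicates 2 and 3. Wild-type replicate 2 correlated at 0.23 and 0.26 with replicate 3 of the ebs1 and labelled double deletions, against 0.08 and -0.02 with their replicate 2.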

Additional observations from a re-analysis of the deposited data

How the results depend on the processing

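In the upf1 comparison the lower calls were 48 to 51 in every alternative and 50 to 51 with any 1 library left out, with 1 higher, or 3 when scaled on coding features. The members' median ran from -0.57 to -0.48 with 1 library left out. IMP3 turned to -0.011 with RLE scaling and DESeq2, and SPB4 to 0.049 with coding scaling. Without 1 library, IMP3 ran from -0.012 to 0.069 and MPP10 from -0.011 to 0.097. Neither was called there, and the cause was not tested. In the second series lower and higher calls were 0 with any 1 library left out. The replicate block gave 12 lower and 1 higher for ebs1 and 9 lower and 1 higher for the labelled double deletion, DESeq2 gave 1 lower and 1 higher there, and coding scaling 1 higher for the labelled double deletion. For the upf1 effect minus nmd4, ebs1 and labelled double effects, lower calls were 44, 37 and 39 with the block, with 1 higher each. They were 33, 12 and 13 with RLE scaling, 36, 17 and 18 with DESeq2 and 29, 7 and 8 without the filter. The higher call of NOP19 against ebs1 was lost with RLE scaling, with DESeq2 and without the filter. The share of features called lower was 9.36% to 17.5% with RLE scaling, 11.6% to 18.8% with DESeq2 and 5.95% to 11.9% without the filter. Under those settings the median of all features was -0.09 to -0.16, against 0.01. Coding scaling gave 6 lower and 1 higher against nmd4. Leaving out 1 library gave 3 to 27, 1 to 12 and 1 to 7 lower and 0 to 1 higher (0 against the labelled double deletion). The share of all features called is not given beside these counts, which describe the calls only. Beyond the calls given here and above, the block changed no call of the genes named by rule. Libraries of 14243384 counts or more leave NOP16 as the member that depth limits most.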
